A study of Homo sapiens with 2 samples.

Results

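Oxidative phosphorylation is run by 5 protein complexes of the inner mitochondrial membrane, and the mRNAs of their nuclear-encoded subunits were measured here in parental HEK293 cells and in a LARP7 knockout clone. The genes were picked by symbol: nuclear protein-coding genes of complex I (NDUF), complex II (SDH), complex III (UQCR), complex IV (COX4 to COX8) and complex V (ATP5). The rule used no measured value, but earlier results of these data were known when it was set. The rule took 99 of the 19802 nuclear protein-coding genes, among 57894 genes with a transcript in the tables. Complex I had 40 of them, complex II 4, complex III 9, complex IV 17 and complex V 21, and 8 NDUFAF genes encode factors that assemble complex I without staying in it.

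HEK293 is an established line derived from human embryonic kidney. Total RNA was sequenced from parental cells and from LARP7 knockout clone 1-11, with 2 libraries in each group and no treatment named. LARP7 is a La-related protein that binds 7SK, a small nuclear RNA that holds the transcription elongation factor P-TEFb inactive. All knockout cells come from 1 clone, so the knockout and any other property of that clone cannot be told apart, and 1 label field of the knockout sample reads wildtype although its title and genotype say knockout. No label says whether replicate libraries were made from different cultures. The p-values below may therefore reflect technical variation alone.

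Complex I oxidises NADH, complex II oxidises succinate, and both pass electrons through ubiquinone to complex III and by cytochrome c to complex IV, which reduces oxygen. Complexes I, III and IV pump protons, and complex V, the ATP synthase, uses the return of the protons to make ATP. Complex II is encoded in the nucleus alone, whereas the others also hold subunits made from mitochondrial DNA, so the output of both genomes meets in them.

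The library labels were first set against the target. LARP7 mRNA stood at 59.8 and 46.5 CPM (CPM is the read count scaled to a common library size, here with TMM factors) in parental cells and at 36.1 and 31.9 CPM in the knockout. The groups did not overlap, but the log2 difference of -0.65 (SE 0.16) did not pass the edgeR quasi-likelihood test (adjusted p = 0.135), and the sources used here do not describe the edit. 7SK RNA itself fell from 5572 and 5481 CPM to 170 and 204 CPM, a log2 change of -4.89 (SE 0.12, edgeR adjusted p = 1e-06). All 9 HEK293 markers were at 1 CPM or more in every library, though not at equal levels. NEFM was at 49.4 and 73.6 CPM in parental and 7.76 and 8.58 CPM in knockout libraries. INA, CDH2, VIM, KRT8 and KRT18 were higher in both knockout libraries, and NEFL, PAX2 and LHX1 overlapped. Of 16 markers of blood, liver, endothelial, fibroblast, muscle and squamous cells, 8 were at 0 in every library, and the 16 summed to between 6.65 and 9.05 CPM, most of it COL1A1.

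The libraries held between 12851942 and 18483220 estimated reads, and parental replicate 2 was the shallowest. It also gave the largest share of TPM to small RNA genes, 53.4% against 32.0 to 37.3% in the other libraries. TPM, an abundance per transcript length, adds to a fixed total, so a gene's TPM falls where another class takes more of it. Fragments, judged by effective length, were 217 and 207 bases long in parental and 233 and 226 bases in knockout libraries. The oxidative phosphorylation genes took 0.698 and 0.651% of all reads in the parental libraries, against 0.701 and 0.695% in those of the knockout.

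The promoters of these genes are often described as targets of NRF1, ETS factors (GABPA, also named NRF2, among them) and YY1, which is why promoter sequences are shown beside the levels. The 120 bases before the RefSeq start (GRCh38.p14) are printed for 4 genes among those with the smallest p in the comparison below that hold a match, and for NDUFAF3, which had the smallest p of the set and holds none in this stretch. Capitals mark matches, on either strand, to GCGCANGCG (NRF1) or AAGATGGCG (YY1), and no CCGGAAGT (ETS) match lies in them. The stretches are chr19:54102735-54102854 (NDUFA3, + strand), chr12:4648994-4649113 (NDUFA9, + strand), chr3:48609647-48609766 (UQCRC1, - strand), chr21:25735055-25735174 (ATP5PF, - strand) and chr3:49020332-49020451 (NDUFAF3, + strand).
NDUFA3: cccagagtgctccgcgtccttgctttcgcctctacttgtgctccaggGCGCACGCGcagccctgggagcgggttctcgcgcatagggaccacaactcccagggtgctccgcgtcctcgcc
NDUFA9: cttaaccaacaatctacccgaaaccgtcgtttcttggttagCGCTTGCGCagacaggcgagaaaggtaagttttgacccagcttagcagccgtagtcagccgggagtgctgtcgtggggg
UQCRC1: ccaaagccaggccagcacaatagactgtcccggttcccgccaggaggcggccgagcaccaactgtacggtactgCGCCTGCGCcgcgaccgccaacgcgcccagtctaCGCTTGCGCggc
ATP5PF: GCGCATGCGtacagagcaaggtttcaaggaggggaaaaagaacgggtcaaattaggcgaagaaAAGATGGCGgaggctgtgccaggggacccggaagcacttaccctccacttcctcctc
NDUFAF3: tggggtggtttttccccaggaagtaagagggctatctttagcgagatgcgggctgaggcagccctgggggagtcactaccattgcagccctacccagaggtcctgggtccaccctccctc

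A RefSeq promoter (250 bases before to 50 after the start) was matched for 79 of the 99 genes. The NRF1 letters were found in 24 of them (30.4%) and in 11.0% of 15843 protein-coding promoters of the same length. The ETS letters were found in 10 (12.7% against 6.19%) and the YY1 letters in 8 (10.1% against 2.74%), and at least 1 of the 3 in 36 (45.6% against 18.1%). No match of 1 motif overlapped a match of another in these promoters, and their median GC content was 60.7% against 62.7% for all. The NRF1 and YY1 letters were shortened by 1 base after the values of the longer forms had been seen, which were 22.8% against 8.58% for NRF1 and 8.86% against 1.93% for YY1. Genes with the NRF1 letters had a median log2 difference of -0.06 between knockout and parental cells (23 tested), and those without had -0.02 (52 tested).

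No gene of oxidative phosphorylation passed the test for a difference between knockout and parental cells. Of the 99 genes 91 had enough reads to be tested, and 0 had an edgeR adjusted p under 0.05, where 0.833% of all 18484 genes tested did. At an unadjusted p under 0.05 there were 14 (3 with higher and 11 with lower levels in the knockout), against 14.3% of all genes tested. DESeq2 called 1, NDUFAF3, where it called 3.03% of the 15258 genes to which it gave an adjusted p. The median log2 difference was -0.05, against 0.00 over all genes tested and 0.03 over nuclear protein-coding genes. For 86 of the 91 genes, the 95% interval of the difference lay within 2-fold either way. In bulk RNA, fewer cells of a kind and less RNA per cell cannot be told apart.

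Without regard to the test, 31 genes were lower in both knockout libraries than in both parental ones (22.7% of all genes tested were) and 8 were higher in both (23.5% of all genes tested were). The count of lower genes was 34.1% of the 91 and the count of higher genes 8.79%. With library size alone in place of TMM factors the counts were 21 lower and 27 higher, where 16.4% and 33.0% of all genes were. With TPM rescaled to the total of nuclear protein-coding genes they were 28 lower and 13 higher, where 22.2% and 21.2% of all genes were. Parental replicate 2 ran below replicate 1 over these genes, by a median log2 CPM difference of -0.12. Leaving it out gave 61 lower and 12 higher, where 38.6% and 39.0% of all genes were. Leaving out parental replicate 1 gave 35 lower (38.5% of the 91) and 36 higher (39.6%), near the 39.7% and 41.8% of all genes.

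**Figure D1:**
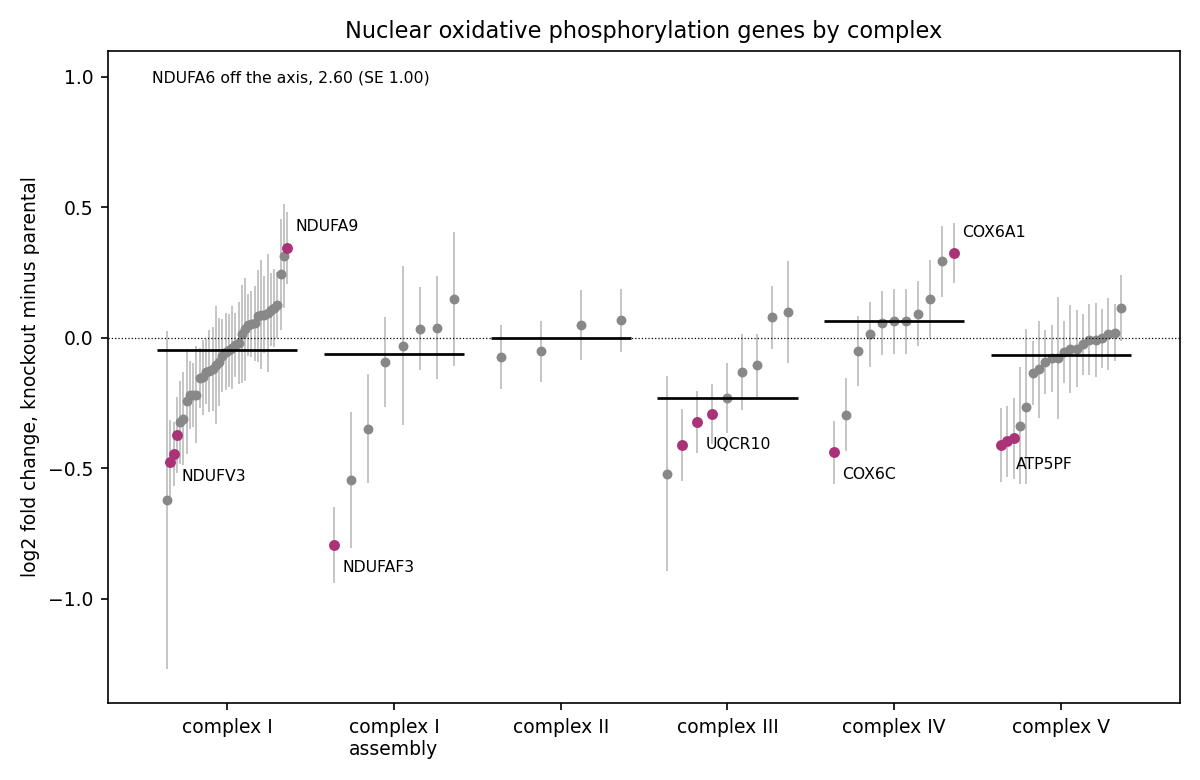
Log2 fold change, knockout minus parental, of the tested genes in each complex, with bars of 1 SE and a black line at the median; coloured points have an unadjusted p under 0.05. Most points lie within 0.5 of zero, the complex III median is the lowest at -0.23, and NDUFA6 lies off the axis at 2.60 (SE 1.00).

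In complex I, 39 of 40 genes were tested, with a median log2 difference of -0.05, 16 of them positive and 23 negative. Over all genes tested 9299 were positive and 9185 negative. The complex I median was 0.045 with library size alone and -0.09 to 0.05 with a library left out. NDUFV3, an accessory subunit of the NADH-oxidising arm (chr21:42879644-42913304), stood at 71.1 and 70.1 CPM in the parental libraries, against 53.7 and 50.1 CPM in those of the knockout. Its groups did not overlap, and its log2 difference of -0.44 (SE 0.12) had an edgeR adjusted p of 0.162. NDUFA3, an accessory subunit of the membrane arm, was at 26.2 and 27.6 CPM against 18.9 and 19.7 CPM. NDUFS8, an iron-sulphur core subunit, was at 40.6 and 37.1 CPM against 29.7 and 30.3 CPM. These accessory and core subunits were lower in both knockout libraries, with edgeR adjusted p of 0.241 for NDUFA3 and 0.297 for NDUFS8.

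NDUFA9, an accessory subunit that binds NADPH, went the other way, from 69.7 and 58.8 CPM in the parental libraries to 77.0 and 86.3 CPM in those of the knockout. Its groups did not overlap, and the log2 difference of 0.34 (SE 0.14) had an edgeR adjusted p of 0.311. NDUFA6 was barely detected, with 0 and 1.27 CPM in parental and 2.69 and 4.44 CPM in knockout libraries. With 3 reads equal to 0.171 CPM in parental replicate 1, its fitted log2 difference of 2.60 (SE 1.00, edgeR adjusted p = 0.293) rests on few reads. It was 1.48 without parental replicate 1 and 8.94 without parental replicate 2, where parental cells had no reads and the value depends on the fit. GENCODE v29 lists 14 transcript entries for NDUFA6 over all sequences of the build and the deposited tables hold 3 of them, so these values may not give the gene's full level. The most abundant complex I mRNAs by TPM were NDUFS5, at 225 and 162 TPM in parental and 278 and 246 TPM in knockout libraries, and NDUFB8, at 166 and 103 against 154 and 172 TPM. Their CPM overlapped between the groups.

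Among the 8 NDUFAF assembly genes the median log2 difference was -0.06. NDUFAF3, which helps join early assembly intermediates of complex I (chr3:49020459-49023495), had the smallest p of the 91 nuclear genes tested. It stood at 54.9 and 63.8 CPM in the parental libraries, against 36.2 and 32.2 CPM in those of the knockout, a log2 difference of -0.79 (SE 0.15). The edgeR adjusted p was 0.053, just above the threshold. NDUFAF3 was called by DESeq2, with nuclear protein-coding genes alone, with no filter and with a replicate block. It was not called by limma voom (adjusted p = 0.0535). With other scalings (edgeR adjusted p 0.0511 to 0.0686), a filter of 1 CPM in all libraries (0.0594) or a transcript-length offset (0.0568) it was not called either. With a library left out its log2 difference ran from -0.903 to -0.685. Its exons overlap those of DALRD3 on the opposite strand, looked up after NDUFAF3's values were seen, at 6.71 and 8.65 CPM against 5.08 and 7.04 CPM. Since no strand setting is given, reads from the overlap cannot be assigned with certainty. NDUFAF8 was at 9.43 and 7.78 CPM against 5.84 and 5.98 CPM (edgeR adjusted p = 0.391), and the more abundant NDUFAF4 and NDUFAF2 overlapped between groups.

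The 4 genes of complex II had log2 differences between -0.07 and 0.07. SDHB, the iron-sulphur subunit, stood at 109 and 100 CPM in the parental libraries, against 110 and 109 CPM in those of the knockout. SDHA, the flavoprotein that oxidises succinate, was at 75.0 and 82.1 CPM against 74.6 and 74.7 CPM. SDHC, a membrane anchor, was at 134 and 142 CPM against 134 and 132 CPM. The groups did not overlap for SDHB, higher in the knockout, and for SDHA, lower in it, and they did for SDHC. Of all genes tested, 23.5% were higher and 22.7% lower in both knockout libraries. The edgeR adjusted p was 0.85 for SDHB and 0.84 for SDHA, whose nearest libraries lay at 75.0 and 74.7 CPM.

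Complex III had the lowest median, -0.23, and 7 of its 9 genes were lower and 1 higher in both knockout libraries, where 22.7% and 23.5% of all genes tested were. UQCRC1, a core subunit facing the matrix (chr3:48599002-48610976), stood at 99.4 and 94.6 CPM in the parental libraries, against 80.2 and 65.9 CPM in those of the knockout. Its log2 difference was -0.41 (SE 0.14, edgeR adjusted p = 0.235). UQCR10, a small membrane subunit, was at 87.9 and 83.6 CPM against 68.3 and 68.8 CPM, a log2 difference of -0.32 (SE 0.12, edgeR adjusted p = 0.276). UQCRB, which takes part in ubiquinone binding, was at 166 and 166 CPM against 133 and 138 CPM, a log2 difference of -0.29 (SE 0.12, edgeR adjusted p = 0.303). None of these reached the threshold. UQCRH, the hinge protein near cytochrome c1, was at 94.6 and 88.3 CPM against 94.9 and 98.2 CPM, and UQCRC2 at 174.6 and 159 against 153 and 157 CPM.

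**Figure D2:**
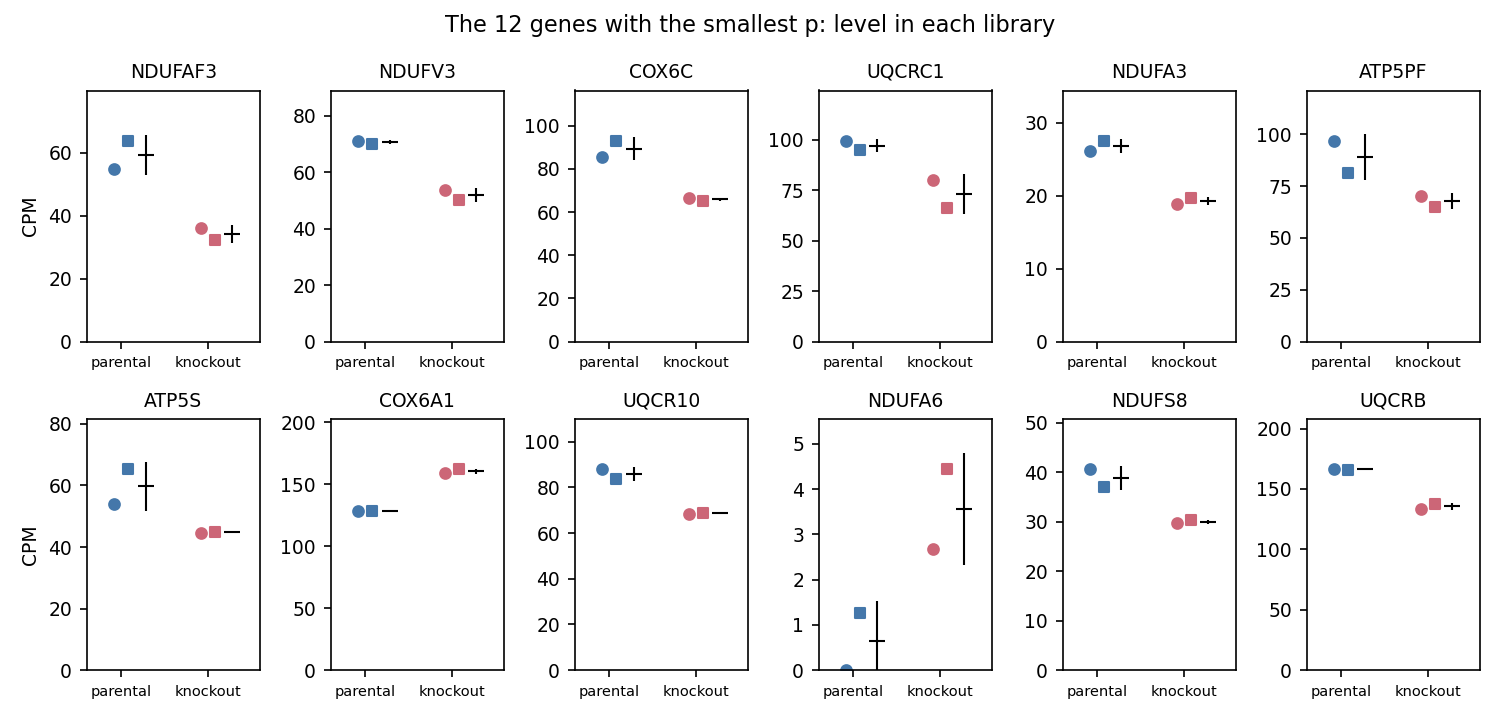
Level in CPM of the 12 genes with the smallest p in each library (blue parental, red knockout; circles replicate 1, squares replicate 2), with the mean and SD of the 2 libraries beside them. NDUFAF3 stands at 54.9 and 63.8 CPM in parental and 36.2 and 32.2 CPM in knockout libraries, and COX6A1 and NDUFA6 are the 2 shown that were higher in the knockout.

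In complex IV, 11 of 17 genes were tested, with a median of 0.06, 8 of them positive, where 9299 of all 18484 genes tested were. The complex IV median was 0.154 with library size alone and -0.001 to 0.083 with a library left out. COX6A1, the widely expressed form of subunit VIa, stood at 128 and 129 CPM in the parental libraries, against 159 and 162 CPM in those of the knockout. The replicates differed by far less than the groups did, and the log2 difference was 0.32 (SE 0.12, edgeR adjusted p = 0.261). COX6C, a small subunit, went the other way, from 85.6 and 93.1 CPM to 66.4 and 65.4 CPM (log2 difference -0.44, SE 0.12, edgeR adjusted p = 0.164). COX7C had the highest mean TPM of the complex over the 4 libraries, at 319 and 211 TPM in parental and 372 and 357 TPM in knockout libraries, with overlapping CPM. In the knockout libraries COX6A1 was higher than COX7C, at 397 and 386 TPM.

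Complex IV subunits come in tissue forms, and the libraries held the widely expressed ones. COX4I1 was at 112 and 99.5 CPM against 112 and 114 CPM, whereas COX4I2, the form linked to low oxygen and lung, had 0 reads in every library. COX6A2, the heart and muscle form, and COX7B2 also had 0 reads in every library, and 3 reads would be 0.171 to 0.238 CPM. COX6B2, COX7A1 and COX8C stayed under 1 CPM, while COX6B1, COX7A2, COX7B and COX8A lay between 45.6 and 129 CPM. COX7A2L, placed in complex IV here by its symbol and not read as a tissue form, lay between 62.3 and 68.5 CPM. NDUFA4, a subunit now assigned to complex IV although its symbol places it in complex I, was at 128 and 120 CPM against 128 and 128 CPM. Its relative NDUFA4L2 stayed between 0.473 and 1.19 CPM.

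In complex V, 20 of 21 genes were tested and 17 had negative log2 differences, where 9185 of all 18484 genes tested did. The complex V median was -0.07, and it was 0.027 with library size alone. With a library left out it ran from -0.172 to -0.002. ATP5PF, coupling factor 6 of the stalk (chr21:25716503-25735673), stood at 96.9 and 81.4 CPM in the parental libraries, against 70.4 and 65.0 CPM in those of the knockout. Its groups did not overlap, and the log2 difference was -0.40 (SE 0.14, edgeR adjusted p = 0.244). ATP5S, a factor B homologue, was at 54.1 and 65.3 CPM against 44.7 and 45.0 CPM (edgeR adjusted p = 0.247). ATP5F1B, the catalytic beta subunit, was the most abundant, at 593 and 525 CPM against 550 and 566 CPM, and its 95% interval ran from -0.26 to 0.25 in log2. ATP5MD, a small membrane subunit, was at 72.9 and 59.5 CPM against 66.8 and 67.0 CPM. The 3 genes for the c-ring protein differed in level, with ATP5MC2 at 132 to 142 CPM, ATP5MC3 at 131 to 186 CPM and ATP5MC1 at 12.2 to 19.3 CPM.

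Summed TPM per complex was higher in both knockout libraries for all 5 complexes, and the values moved with the scaling. Complex I summed to 2218 and 1516 TPM in parental and 2587 and 2334 TPM in knockout libraries, a log2 difference of 0.42. The log2 differences were 0.54 for complex II, 0.32 for complex III, 0.50 for complex IV and 0.39 for complex V, each with a two-sided exact permutation p of 0.333, the smallest that 2 against 2 libraries can give. When TPM was rescaled to the total of nuclear protein-coding genes, the differences were -0.01 for complex I, 0.10 for II, -0.12 for III, 0.07 for IV and -0.05 for V. Complexes II and IV were still higher in both knockout libraries, III was lower in both, and I and V overlapped. In TMM-scaled CPM they were -0.04, -0.01, -0.16, 0.05 and -0.04. Nuclear protein-coding genes held 34.6 and 25.1% of TPM in parental libraries and 41.1 and 38.7% in the knockout, and the part of the small RNA share in the TPM differences was not tested beyond this rescaling.

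**Figure D3:**
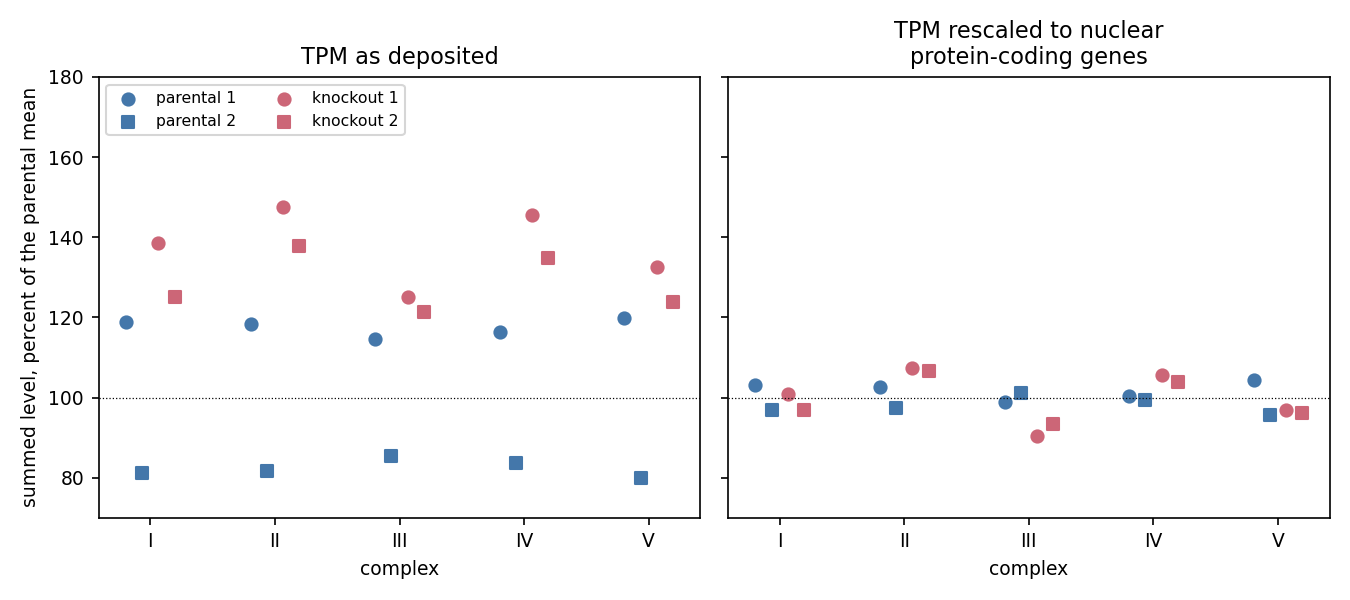
Summed level of each complex in each library as a percentage of the parental mean, from TPM as deposited (left) and from TPM rescaled to nuclear protein-coding genes (right). On the left the knockout libraries lie above the parental ones in all 5 complexes; on the right complexes I and V overlap, II and IV lie above and III below.

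The make-up of the set in TPM, which needs no library scaling but uses effective lengths, showed small shifts. Complex IV took 20.6 and 21.4% of the summed TPM of the 5 complexes in the parental libraries and 22.3 and 22.2% in those of the knockout. Complex III took 10.4 and 11.2% against 9.84 and 10.3%, complex II 3.005 and 2.997% against 3.243 and 3.266%, and complex V 37.51 and 36.2% against 35.89 and 36.19%. Complex I took 28.51 and 28.18% against 28.78 and 28.01%, with overlap. The groups did not overlap for complexes II to V, and the two-sided exact permutation p was 0.333 for each, the smallest possible. For complex V they all but met, at 36.2% in parental replicate 2 and 36.19% in knockout replicate 2. Fragments were longer in the knockout libraries, which enters TPM through effective length.

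The mitochondrially encoded partners stood apart from the nuclear genes. All 13 mitochondrial mRNAs were lower in both knockout libraries and 11 passed edgeR's test, taking 9.97 and 10.4% of the reads in parental and 6.87 and 6.14% in knockout libraries. MT-ATP6, the proton channel subunit of complex V, fell from 9251 and 9781 CPM to 4798 and 4118 CPM (edgeR adjusted p = 0.00206). MT-ND4 of complex I fell from 14710 and 17450 CPM to 8251 and 7025 CPM (edgeR adjusted p = 0.00403). MT-CO3 of complex IV fell from 10230 and 10810 CPM to 6526 and 6596 CPM (edgeR adjusted p = 0.00489), and MT-CYB of complex III from 7506 and 8558 CPM to 5624 and 4779 CPM (edgeR adjusted p = 0.0343). MT-CYB did not pass with a filter of 1 CPM in all libraries, and neither MT-CYB nor MT-CO1 passed without knockout replicate 2, where their log2 differences were -0.51 and -0.49.

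Within each complex the ratio of mitochondrial to nuclear summed TPM was lower in both knockout libraries. For complex V it was 7.80 and 9.53 in parental and 4.28 and 3.89 in knockout libraries, a log2 difference of -1.08. For complex I it was 24 and 26.1 against 15.5 and 13.5 (-0.80 in log2), for complex IV 22.9 and 25.7 against 15.1 and 14.7 (-0.70), and for complex III 7.14 and 8.59 against 5.97 and 5.04 (-0.51). No group overlapped another in any of the 4 complexes, and the two-sided exact permutation p was 0.333 for each. Knockout fragments were longer in these libraries. From summed estimated counts in place of TPM, the log2 differences were -0.76 for complex I, -0.46 for III, -0.65 for IV and -1.08 for V. The part of fragment length in the ratio was not tested beyond this.

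**Figure D4:**
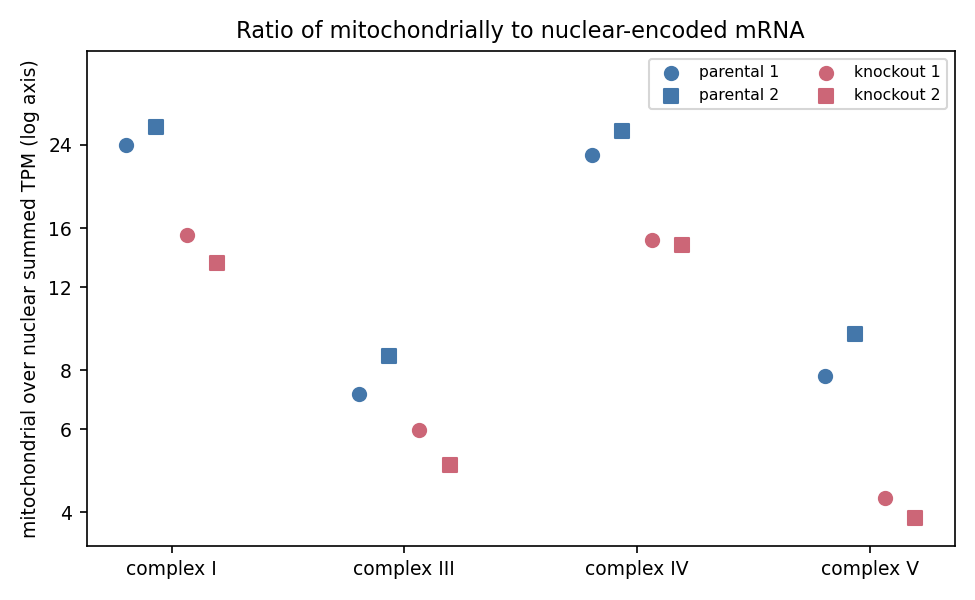
Summed TPM of mitochondrially encoded mRNAs over that of nuclear mRNAs of the same complex in each library, on a log axis (blue parental, red knockout; circles replicate 1, squares replicate 2). The ratio is lower in both knockout libraries in every complex shown, and the gap is widest in complex V (8.66 against 4.09 on average).

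Other nuclear genes of the pathway were taken from 4 lists, and their calls are read against 0.833% of all genes tested, or 14.3% at an unadjusted p under 0.05. Of 44 further assembly factors 0 passed edgeR's test (5 at an unadjusted p under 0.05), with a median of -0.08. UQCC1, a complex III assembly factor, was at 52.1 and 52.1 CPM against 34.3 and 31.7 CPM (edgeR adjusted p = 0.0731). Of 24 electron and inner membrane carriers 0 passed (5 at an unadjusted p under 0.05), and COQ4 of ubiquinone synthesis was at 52.6 and 58.0 CPM against 36.8 and 29.5 CPM (edgeR adjusted p = 0.0813). Of 21 genes of pyruvate dehydrogenase and the citric acid cycle 1 passed: SUCLG2, a subunit of succinyl-CoA synthetase, fell from 55.9 and 54.4 CPM to 29.9 and 31.5 CPM (log2 change -0.84, SE 0.13, edgeR adjusted p = 0.0309). SUCLG2 did not pass without knockout replicate 1 (-0.81) or without knockout replicate 2 (-0.88). Of 14 regulators 0 passed, also at an unadjusted p under 0.05, and GABPA was at 168 and 163 CPM against 154 and 134 CPM.

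Several of the lower genes lie where their neighbours were lower as well, on chromosome arms where an earlier result on these data gave regional shifts. On 3p, NDUFAF3 and UQCRC1 had a median log2 difference of -0.60, and 376 other genes of the arm had -0.26. On chromosome 21, NDUFV3, ATP5PF and ATP5PO had -0.40 and 129 other genes -0.23. On 8q, NDUFB9, NDUFAF6, UQCRB and COX6C had -0.32 and 296 other genes -0.20, and on 7q 4 genes had -0.19 and 420 other genes -0.02. The 78 genes elsewhere had a median of -0.04. All 13374 other nuclear protein-coding genes tested, those of the 4 regions above included, had a median of 0.03.

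The 30 tested protein-coding neighbours on each side were then set beside each gene. They had a median of -0.40 around NDUFAF3, -0.42 around UQCRC1, -0.26 around NDUFV3, -0.21 around ATP5PF and -0.32 around COX6C. On 7q the neighbours differed along the arm, with -0.43 around NDUFB2, itself at -0.31, and 0.18 around NDUFA5, itself at 0.13. They had -0.02 around ATP5MF, itself at -0.12, and 0 around ATP5MF-PTCD1, itself at -0.26. NDUFB9 went against its neighbours, at 0.11 where they had -0.26. NDUFA3 was lower at -0.48 where its neighbours had 0.14, and COX6A1 higher at 0.32 where its neighbours had -0.03. For 10 genes whose neighbours had a median of -0.15 or less, a limit set after the values were seen, the median was -0.37 and 9 were negative, against -0.04 and 48 negative among the other 81. Over the 91 genes Spearman's rho between a gene and its neighbours was 0.40, a description over genes that share libraries and, in part, neighbours.

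**Figure D5:**
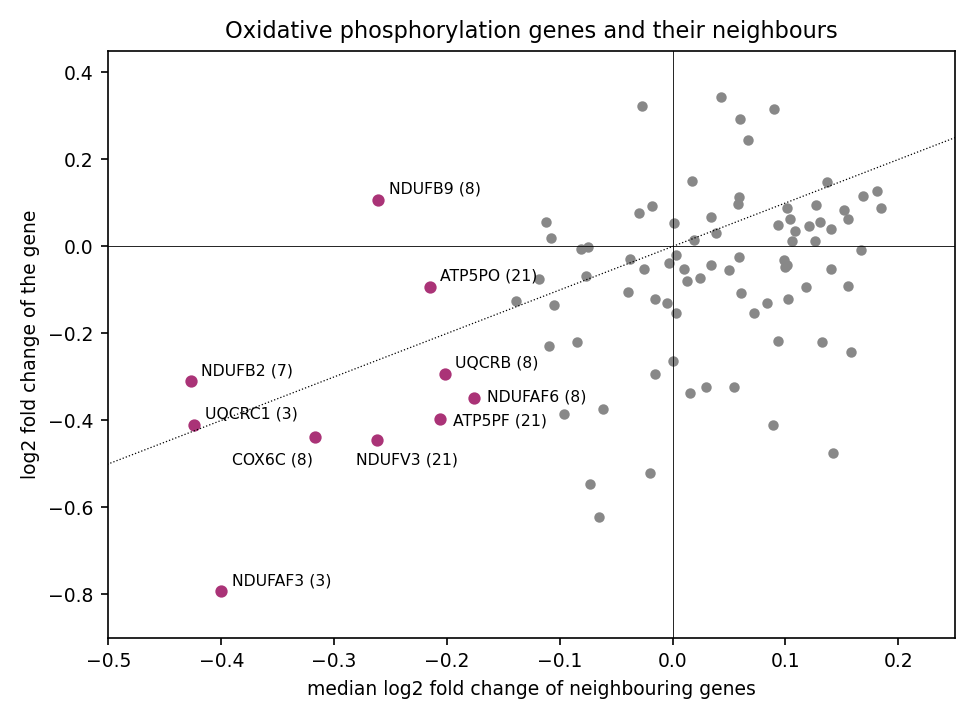
Log2 fold change of each tested gene (vertical) against the median log2 fold change of its 30 neighbours on each side (horizontal), without NDUFA6; the dotted line marks equal values, and coloured genes, with their chromosome in brackets, have neighbours at -0.15 or lower. Of these 10, NDUFB9 at 0.11 is the exception with a positive value.

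Transcript usage, the split of a gene's reads among its transcripts, was tested in 69 of the genes. None passed edgeR's diffSpliceDGE test at an adjusted p under 0.05 (1 at an unadjusted p under 0.05), where 0.824% of 10196 genes did. The closest was NDUFAB1, the mitochondrial acyl carrier protein, whose transcript NDUFAB1-203 had 66 and 30 reads in parental libraries and 0 and 0 in the knockout. Its share of the gene's TPM was 10.8 and 6.77% in parental cells and 0% in both knockout libraries (diffSpliceDGE adjusted p = 0.069). It was called with the gene-level F test (edgeR adjusted p = 0.036) and with no minimum share (0.0479), and not with the replicate block (0.495) or without knockout replicate 1 (0.454) or 2 (0.312).

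The largest shifts in share without overlap between the groups were in other genes. NDUFA6-203 took 0% of its gene's TPM in both parental and 52.4 and 29.9% in knockout libraries, on a gene with no reads in parental replicate 1. NDUFAF1-201 took 28.7 and 38.2% against 51.3 and 69.5%, on a gene with as few as 78 reads in a library. The next shifts were in genes with at least 100 reads in every library, a minimum that the naming rule does not hold. NDUFS7-218 took 54.2 and 60.9% of its gene's TPM in parental and 20.3 and 41.3% in knockout libraries. ATP5MC1-201 took 56.9 and 60.6% against 40.3 and 43.4%, and NDUFB5-201 took 51.4 and 59.0% against 39.0 and 43.6%. ATP5F1D-204, with a retained intron, took 30.4 and 21.6% against 8.48 and 17.4%, and NDUFAF7-209, annotated for nonsense-mediated decay, took 43.1 and 45.0% against 30.7 and 33.0%. None of these 7 genes passed the usage test. Over the oxidative phosphorylation genes together, transcripts annotated for nonsense-mediated decay took 4.62 and 5.17% of TPM in parental and 3.80 and 4.23% in knockout libraries (two-sided exact permutation p = 0.333, the smallest possible). Over all nuclear protein-coding genes the share was 3.34 and 3.43% against 3.34 and 3.35%, with overlap. Retained-intron transcripts took 7.29 and 7.74% against 6.94 and 7.81%, with overlap.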

How the data were processed

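The authors deposited, per the file headers, estimated counts, TPM and effective length for each transcript of 2 parental and 2 knockout libraries. The submitters' processing notes name Salmon 1.6 and STAR 2.5.3a, with cutadapt 1.6 and edgeR 3.24.3 among others; the strand setting is not given in the sources used here. Of 198002 transcripts, 197318 were matched to GENCODE v29 (GRCh38). For each gene the estimated counts were added up and rounded to whole numbers. The 7SK locus has more than 1 entry, and the entry with reads was used. Genes were tested with edgeR 4.0.16 in R 4.3.3 (its quasi-likelihood F test after filterByExpr and TMM scaling), with the knockout set against parental cells and p adjusted by Benjamini-Hochberg over all genes (threshold 0.05). The SE is the log2 difference over the root of F. Usage was tested with diffSpliceDGE on transcripts with at least 10 reads and 5% of their gene in 2 libraries. Summed TPM, ratios and shares went through an exact permutation test, two-sided. The steps were tested on simulated data. The members and lists were chosen with earlier results of these data known. Genes were named by rule: the target, the highest TPM and smallest p in each complex, paralogue groups, the largest usage shifts, members in the regions above and up to 2 per list. Limits on reads cover counting error only, and pseudogenes named after these genes held 0.365 to 0.433% of the reads of both. Alternatives were DESeq2 1.42.0, limma 3.58.1 voom, other scalings and filters, a transcript-length offset, leaving out each library, and a replicate block.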

Additional observations from a re-analysis of the deposited data

How the results depend on the processing

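With 2 libraries a group, single libraries moved many values. Among the oxidative phosphorylation genes, 1 was called with DESeq2, 1 with nuclear protein-coding genes alone and 2 with no filter (NDUFAF3 and NDUFA6). Over all genes, 154 were called, 463 with DESeq2, 831 with no filter, 96 with at least 1 CPM in all libraries and 200 to 2265 with a library left out. A replicate block gave 7 of the oxidative phosphorylation genes and 1656 genes in all (8.96% of those tested), and 0 genes for usage. The share of all genes called was 3.03% with DESeq2, 1.13% with nuclear protein-coding genes alone and 2.64% with no filter. The labels pair nothing beyond a number, and the deviations of same-numbered libraries correlated at 0.28. Usage calls numbered 84, and 132 with no minimum share (2 of them oxidative phosphorylation genes), 21 with at least 10% of the gene, 154 with the gene-level F test (1 of them) and 0 to 127 with a library left out. For usage with no minimum share, the 2 oxidative phosphorylation genes called were among 79 tested, where 1.26% of all genes tested were called. With the gene-level F test it was 1 of 69, where 1.51% of all genes tested were called. The cause of the differences between settings was not tested.

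Summed TPM per complex changed sign on rescaling to nuclear protein-coding genes (complex I -0.015, III -0.121, V -0.049) and in TMM-scaled CPM (I -0.043, II -0.0061, III -0.165, V -0.035). With a library left out it ran from 0.1476 to 0.6967 for I, 0.269 to 0.805 for II, 0.104 to 0.529 for III, 0.267 to 0.7415 for IV and 0.096 to 0.680 for V. The median over the genes was 0.042 with library size alone and -0.126 to -0.002 with a library left out. The counts without overlap, an alternative set after seeing the data, were 27 higher and 21 lower with library size alone (33.0% and 16.4% of all genes), 13 higher and 28 lower with rescaled TPM (21.2% and 22.2%), and 11 to 36 higher and 35 to 61 lower with a library left out (33.9 to 41.8% and 31.9 to 39.7%).

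Genes near zero changed sign. With library size alone, NDUFS5 was at 0.064, SDHC 0.04, SDHA 0.019, ATP5F1B 0.091, COX8A 0.042, ATP5MC2 0.038, ATP5MC3 0.052, ATP5F1D 0.015, NDUFAF7 0.001 and NDUFAF1 0.066. With the transcript-length offset NDUFS5 was at 0.025 and COX8A 0.01. With nuclear protein-coding genes alone ATP5MD was at -0.025 and COX7B -0.026. ATP5F1B was at 0.009 with no filter and 0 with the replicate block, and NDUFAF1 at 0.014 with that block. With a library left out the ranges were NDUFS5 -0.079 to 0.028, NDUFAF4 -0.221 to 0.658, NDUFAF2 -0.167 to 0.227, NDUFAF1 -0.37 to 0.434, COX7C -0.037 to 0.165, ATP5F1B -0.09 to 0.084, ATP5MD -0.128 to 0.166, COX6B1 -0.009 to 0.326, COX7A2 -0.002 to 0.124, COX7A2L -0.005 to 0.123, COX7B -0.069 to 0.093, COX8A -0.156 to 0.057, ATP5MC3 -0.273 to 0.225, ATP5F1D -0.323 to 0.198, NDUFB9 -0.003 to 0.217, ATP5MF -0.259 to 0.03 and ATP5MF-PTCD1 -0.599 to 0.053. The mitochondrial to nuclear ratios kept their direction under every alternative run.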
